A study of Mus musculus with 12 samples.

Results

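The circadian clock genes regulated through the E-box were examined for binding of USF2 in mouse embryonic fibroblasts (MEFs). The set held 10 of the 21887 protein-coding genes placed on the assembled chromosomes, namely the repressors Cry1, Cry2, Per1, Per2, Ciart and Bhlhe40, the nuclear receptor gene Nr1d1, and the PAR-bZIP factors Dbp, Tef and Hlf. The genes were chosen by name, and a peak was assigned to one of them when its summit, the position of highest read pileup, lay within 1000 bp of either end of the gene or inside it. Of the 10 genes, 3 had such a peak in at least 1 list, namely Cry1, Tef and Ciart, and the other 7 had none. By the same rule 10.5% of all protein-coding genes had a peak in at least 1 list.

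The data are chromatin immunoprecipitations with an antibody to USF2, sequenced from wild-type MEFs under normal culture and from wild-type MEFs after glucose starvation, with 2 libraries per condition. They make up 4 of the 12 samples of the series, and the input, H3K27ac and Usf2 knockout samples were not used here. The labels do not say whether the 2 libraries of a condition came from separate cultures, nor how long the cells were starved. Peak lists hold no expression values, so the labelled cell type could not be checked against marker genes. The lists held 1645 and 2124 peaks in normal 1 and normal 2 and 825 and 1178 in starved 1 and starved 2, with a median of 5 to 8 reads over a summit. Calling width went with the condition, since no peak was narrower than 152 bp in either normal list or than 306 bp in either starved list.

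The mammalian clock is a transcriptional loop in which the activators CLOCK and BMAL1 bind E-boxes, short DNA motifs, and drive the genes of their own repressors, the PER and CRY proteins. USF2 belongs to the basic helix-loop-helix leucine zipper factors, which recognise the same core motif, CACGTG, so promoters of clock genes hold sites that both kinds of factor can bind. USF proteins favour the core when it is preceded by GT or followed by AC, written here as the extended E-box GTCACGTG on either strand. Ciart and Bhlhe40 encode further repressors of CLOCK-BMAL1, Nr1d1 encodes REV-ERB alpha, which represses the gene of BMAL1, and DBP, TEF and HLF carry the rhythm to output genes through D-box elements.

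The upstream promoter sequences of the 3 bound genes are shown to compare their E-boxes. Those of Per1, Cry2 and Nr1d1 are added as genes without a called peak that hold an E-box or its variant. Each line gives the 250 bases before a RefSeq start, 5′ to 3′ on the strand of the gene, from the RefSeq promoter table of GRCm38.p6. Capitals mark the E-box CACGTG and the variant CACGTT, which reads AACGTG on the other strand.
Cry1 (chr10:85185055-85185304, minus strand): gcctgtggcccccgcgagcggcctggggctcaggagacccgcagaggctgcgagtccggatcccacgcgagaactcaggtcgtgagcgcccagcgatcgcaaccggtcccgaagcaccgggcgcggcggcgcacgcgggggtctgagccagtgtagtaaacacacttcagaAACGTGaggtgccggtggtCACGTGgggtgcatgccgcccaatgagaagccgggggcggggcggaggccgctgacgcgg
Ciart (chr3:95882229-95882478, minus strand): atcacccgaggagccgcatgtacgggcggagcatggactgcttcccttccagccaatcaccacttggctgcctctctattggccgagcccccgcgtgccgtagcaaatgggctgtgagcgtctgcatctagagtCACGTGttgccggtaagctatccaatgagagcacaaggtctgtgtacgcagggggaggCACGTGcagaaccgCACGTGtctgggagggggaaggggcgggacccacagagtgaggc
Tef upstream start (chr15:81802423-81802672, plus strand): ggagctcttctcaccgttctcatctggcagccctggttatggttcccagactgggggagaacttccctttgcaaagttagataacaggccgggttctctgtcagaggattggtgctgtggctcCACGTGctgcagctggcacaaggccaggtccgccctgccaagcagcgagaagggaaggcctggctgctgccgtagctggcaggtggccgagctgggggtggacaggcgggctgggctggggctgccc
Tef internal start (chr15:81811164-81811413, plus strand): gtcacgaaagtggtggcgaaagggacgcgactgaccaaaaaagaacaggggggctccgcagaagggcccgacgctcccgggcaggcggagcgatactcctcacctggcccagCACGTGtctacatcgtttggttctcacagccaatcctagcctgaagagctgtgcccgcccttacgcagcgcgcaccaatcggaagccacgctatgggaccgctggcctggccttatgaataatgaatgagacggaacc
Per1 first start (chr11:69098699-69098948, plus strand): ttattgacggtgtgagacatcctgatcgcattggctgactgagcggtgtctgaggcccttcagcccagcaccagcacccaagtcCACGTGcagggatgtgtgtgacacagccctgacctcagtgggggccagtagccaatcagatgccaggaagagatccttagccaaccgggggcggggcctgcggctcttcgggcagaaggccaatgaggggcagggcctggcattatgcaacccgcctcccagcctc
Cry2 (chr2:92434070-92434319, minus strand): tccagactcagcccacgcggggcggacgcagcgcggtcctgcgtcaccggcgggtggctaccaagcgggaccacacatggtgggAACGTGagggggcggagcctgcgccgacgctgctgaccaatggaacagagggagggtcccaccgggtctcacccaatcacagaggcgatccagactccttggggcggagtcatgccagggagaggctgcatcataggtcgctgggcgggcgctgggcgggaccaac
Nr1d1 (chr11:98775378-98775627, minus strand): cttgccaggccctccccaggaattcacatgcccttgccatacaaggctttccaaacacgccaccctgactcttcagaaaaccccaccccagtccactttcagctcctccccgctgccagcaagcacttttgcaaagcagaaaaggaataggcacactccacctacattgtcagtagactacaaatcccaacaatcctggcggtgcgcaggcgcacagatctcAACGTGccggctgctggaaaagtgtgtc

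The table had entries for 8 of the 10 genes, with 10 starts in all, and held none for Per2 and Bhlhe40. In the whole windows of 300 bases, which run to 50 bases past each start, 4 of these genes had an E-box, namely Cry1, Per1, Tef and Ciart. Cry2 and Nr1d1 had the variant alone, and the windows of Dbp and Hlf had neither motif. The Cry1 promoter paired the variant, 79 bp before the start, with an extended E-box 60 bp before it. Ciart had 3 E-boxes, at 116, 58 and 44 bp before its start, and the first of them was extended. Tef had 1 E-box at each of its 2 starts, at 127 and 138 bp, and Per1 had 1 at 166 bp before its first start, none of them extended. The annotated Per1 gene begins at 69095108, upstream of this first listed start at 69098949. No start was listed at 69095108, so the promoter there was not read for motifs. Among the 21263 promoter windows of protein-coding genes in the table, 7.84% held CACGTG, 2.84% held GTCACGTG on either strand (each of which contains CACGTG), 4.68% held CACGTT on either strand, and 23 windows (0.108%) held 3 or more CACGTG, as Ciart did.

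Cry1, which encodes a core repressor of the clock, was the 1 gene of the set with a gene-end peak in all 4 lists. Its summit lay 109 and 123 bp upstream of the annotated start in normal 1 and normal 2, and 55 and 53 bp upstream in starved 1 and starved 2 (chromosome 10, gene from 85131700 to 85185054). The peak ran from 85185076 to 85185235 in normal 1, from 85185046 to 85185227 in normal 2, from 85184841 to 85185314 in starved 1 and from 85184911 to 85185314 in starved 2. All 4 intervals covered the E-box (85185109 to 85185114), and the 2 starved intervals had the same end.

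The fold enrichment of the Cry1 peak, as the authors' peak caller gives it, was 8.43 in normal 1, 8.19 in normal 2, 10.8 in starved 1 and 10.2 in starved 2. Its −log10 q was 8.49, 8.25, 14.5 and 13.6 in the same order. By −log10 q it ranked 251 of 1645 and 385 of 2124 in the normal lists and 88 of 825 and 107 of 1178 in the starved lists, which is within the top 15.3%, 18.1%, 10.7% and 9.08% of each list. The Cry1 peak was thus in the upper part of every list, and nearer the top in both starved lists than in either normal list. The lists differ in length, so a change between conditions cannot be judged from these ranks. Fold enrichments depend on the depth and calling width of a library, so no change between conditions was computed from them.

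The reads over the summit, recovered from the fold enrichment and p-value of each peak, were 12 in both normal libraries (95% exact Poisson interval 6.20 to 21.0) and 18 in both starved libraries (10.7 to 28.4). The local background at these positions was 0.541 and 0.586 reads in the normal and 0.756 and 0.855 reads in the starved libraries. Intervals cover counting error only. They overlap between the conditions. Calling width differs between the conditions, and the sequencing depth of the libraries was not compared.

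**Figure D1:**
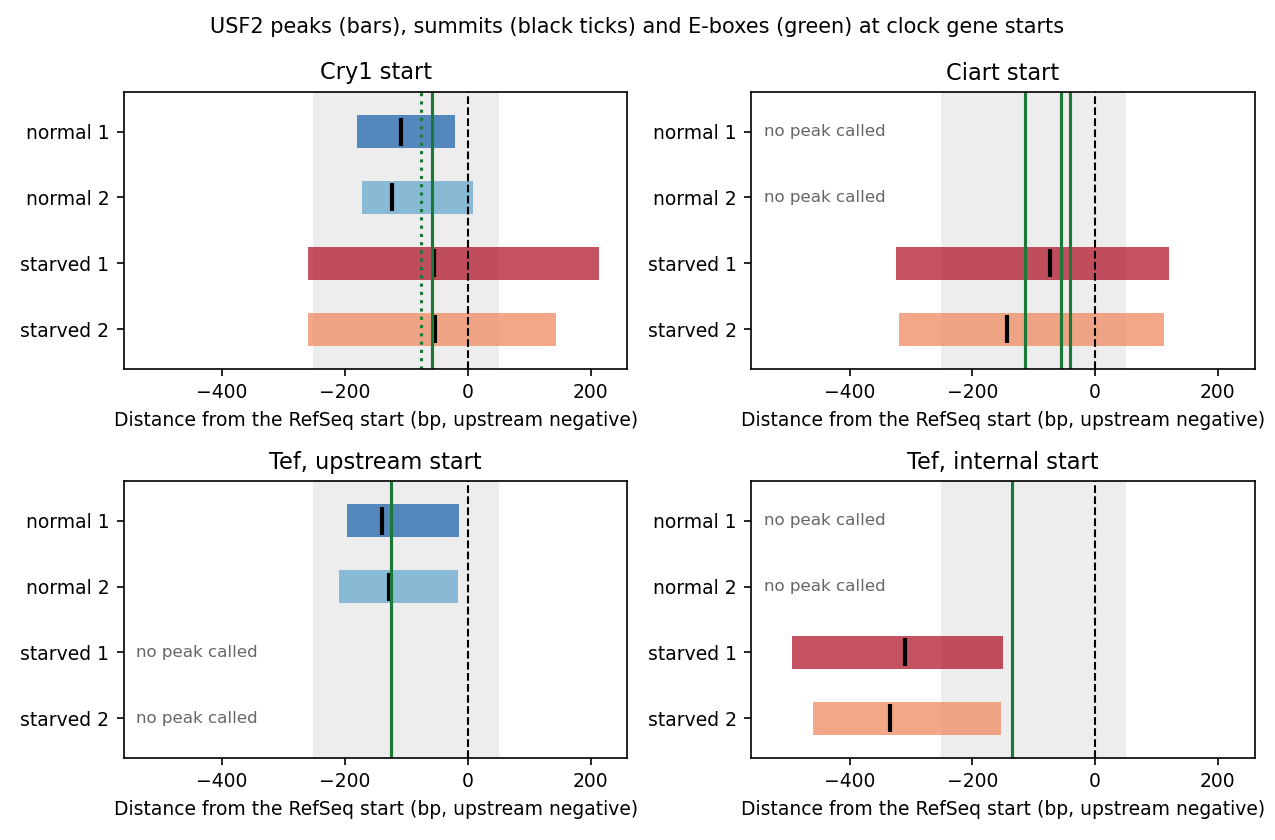
USF2 peaks at the starts of Cry1, Ciart and Tef in the 4 lists, drawn as distance from the RefSeq start in bp; bars are the called intervals, black ticks the summits, solid green lines E-boxes, the dotted green line the variant E-box, and the grey band the 300-base promoter window. Cry1 was called in all 4 lists, Ciart in the starved lists alone, and Tef at its upstream start in the normal lists and 310 and 334 bp before its internal start in the starved lists.

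The position of the summit relative to the motif differed between the conditions at Cry1. In the starved lists the summit was 0 and 2 bp from the E-box. In the normal lists it lay 49 and 63 bp further upstream of the E-box and 30 and 44 bp from the variant. The Cry1 summits were 14 bp apart within the normal pair, 2 bp within the starved pair and 54 to 70 bp across conditions. At Cry1 the gap was thus larger across conditions than within either pair. At Ciart, however, the summits of starved 1 and starved 2 were also 70 bp apart, so gaps of this size occurred within a condition too. The Cry1 peaks were 160 and 182 bp wide in the normal and 474 and 404 bp wide in the starved lists. The part of this width in the gap across conditions was not tested. With 2 lists per condition an exact permutation test of the gap cannot reach a p below 0.33, and none was run. Among promoters with an E-box and a summit in the window, 94.1% of 238 in normal 1 and 96.6% of 234 in normal 2 had their summit at least as near to an E-box as Cry1, against 9.70% of 237 in starved 1 and 14.6% of 267 in starved 2. The median distance over these promoters was 10.5, 9, 16 and 20 bp in the 4 lists.

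Tef, the gene of thyrotroph embryonic factor, had a peak in all 4 lists, but at different places in the 2 conditions (chromosome 15, gene from 81802673 to 81826863). In normal 1 and normal 2 the summit was 140 and 128 bp upstream of the first start, with peaks from 81802477 to 81802658 and from 81802464 to 81802656. The E-box there (81802546 to 81802551) was 13 and 1 bp from the 2 summits. In starved 1 and starved 2 no peak was called at this start. The peaks instead ran from 81810921 to 81811263 and from 81810955 to 81811260, inside the gene, with summits 310 and 334 bp upstream of a second RefSeq start at 81811414. The starts lie 8741 bp apart, and the summits 8535 to 8571 bp across conditions, against 12 bp within the normal and 24 bp within the starved pair. The nearest gene end was 8431 and 8407 bp from the starved summits, so these peaks count as inside the gene and not as gene-end peaks.

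The normal peaks at the first start of Tef had fold enrichments of 7.67 and 8.12 and −log10 q of 8.59 and 9.82, ranking 247 of 1645 and 290 of 2124. The starved peaks before the internal start had 5.96 and 4.98, with −log10 q of 6.12 and 4.61, ranking 275 of 825 and 464 of 1178. The first pair was thus within the top 15.0% and 13.7% of its lists and the second within the top 33.3% and 39.4%. The fold enrichment in starved 2 was below that list's median of 5.30. Reads over the summit were 16 and 17 in the normal libraries, over a background of 1.22 in both, and 16 in both starved libraries, over 1.85 and 2.41. The E-box at the internal start was 172 and 196 bp from the starved summits and lay outside both called intervals. The summits themselves were outside the printed sequence, so the motifs beneath them are not given.

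The promoter table shows how often bound genes had peaks at different starts in the 2 conditions. Of 17492 protein-coding genes with a start in the promoter table, 1268 had starts more than 2000 bp apart, and 19 of those had a peak within 1000 bp of a start in all 4 lists. Among these 19 genes, Tef was the 1 (5.26%) whose normal and starved peaks lay at starts more than 2000 bp apart. This count was made after the positions at Tef had been seen. A list without a peak at a start is a list in which that site missed the caller's threshold, and not a measurement of absent binding.

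Ciart, the gene of the CLOCK-BMAL1 repressor CHRONO, had a peak in both starved lists and in neither normal list (chromosome 3, gene from 95878500 to 95882257). The peaks ran from 95882109 to 95882553 in starved 1 and from 95882116 to 95882548 in starved 2, and all 3 E-boxes of the promoter lay within both. The summits were 74 and 144 bp upstream of the start and 70 bp apart. In starved 1 the nearest E-box was the one at 58 bp, 16 bp from the summit. In starved 2 it was the extended one at 116 bp, 28 bp from the summit.

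Fold enrichments at Ciart were 6.46 in starved 1 and 6.82 in starved 2, with −log10 q of 9.60 and 10.7. The peak ranked 166 of 825 and 154 of 1178, within the top 20.1% and 13.1%. There were 23 and 24 reads over the summit (95% exact Poisson intervals 14.6 to 34.5 and 15.4 to 35.7), the most of any peak of the set, over a background of 2.72 and 2.67 reads, also the highest of the set. By fold enrichment alone it ranked lower, 286 and 280. In the normal lists the nearest summit to an end of Ciart was 123533 and 123521 bp away. The weakest peaks in those lists had 3 reads over the summit, but the reads at Ciart in the normal libraries are not in a list of peaks.

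**Figure D2:**
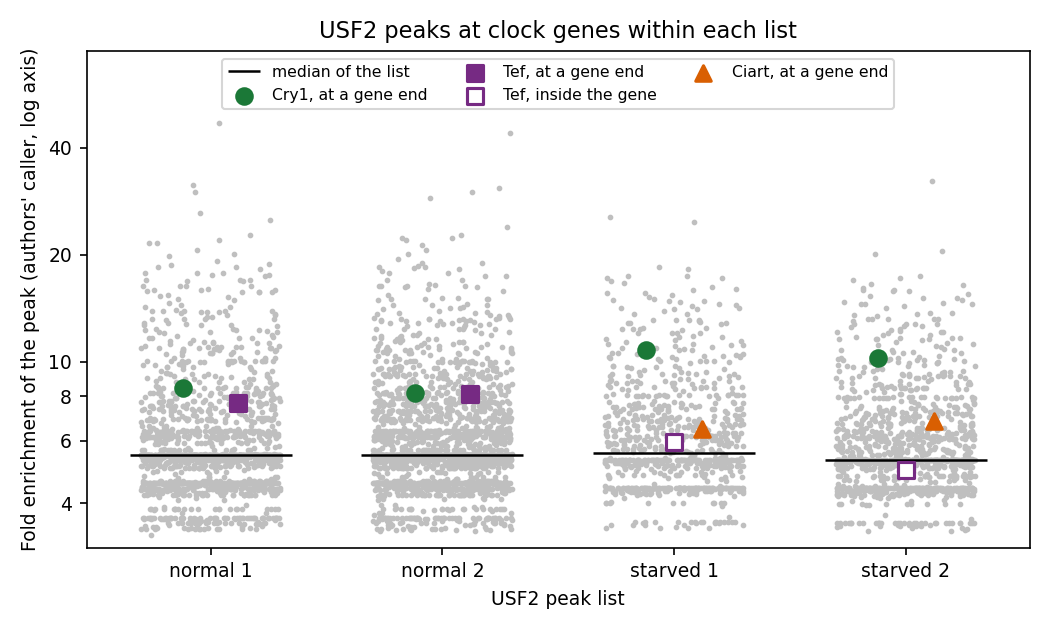
Fold enrichment of every peak (grey points, log axis) in each of the 4 lists, with the peaks at Cry1, Tef and Ciart marked and the median of each list as a black line. Cry1 sits above the median in all 4 lists, at 8.43, 8.19, 10.8 and 10.2, and the open squares of Tef inside the gene lie near the median of the starved lists.

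**Figure D3:**
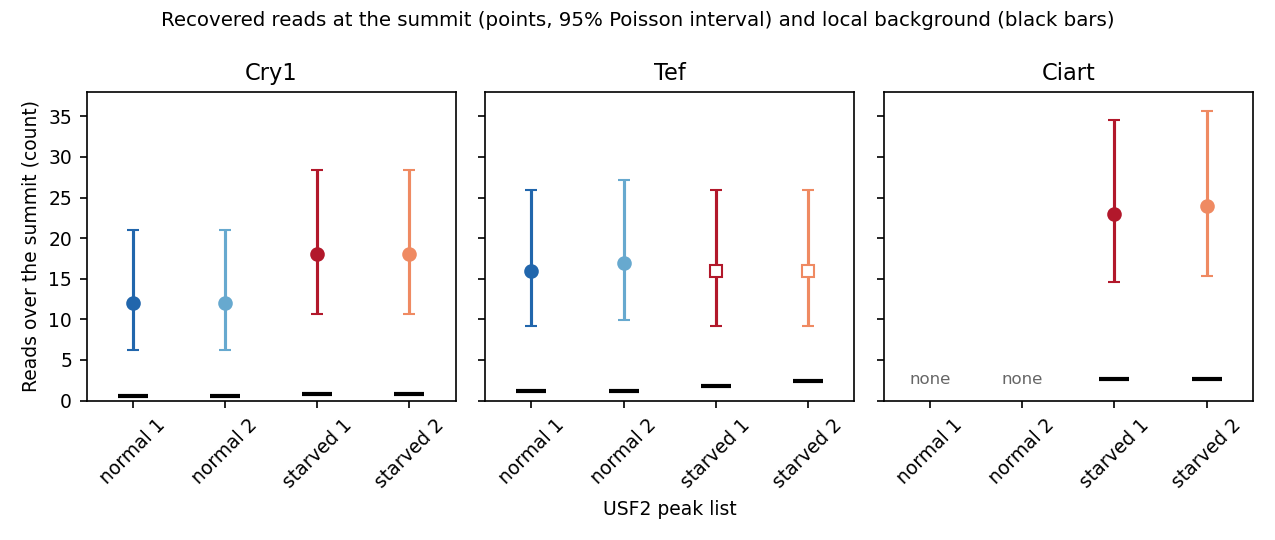
Reads over the summit at Cry1, Tef and Ciart by list (points, with 95% exact Poisson intervals) and the local background in reads (black bars), with open squares for peaks inside the gene. All points lie between 12 and 24 reads and all backgrounds below 3 reads.

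The 7 remaining genes had no peak at an end or inside in any list. The nearest summit in any list was 11231 bp from an end of Per2 (normal 1, fold enrichment 3.86), and in the other 3 lists it was 514439 bp or more away. For Bhlhe40 (87539 bp), Nr1d1 (102159 bp), Dbp (116500 bp), Per1 (241927 bp), Cry2 (266034 bp) and Hlf (362068 bp) the nearest summit of any list was farther still. The largest distance of a gene-end peak of the set was 140 bp, at Tef, so no gene was near the limit of 1000 bp on either side. Both starts of Per1 lay inside its annotated span, and neither had a summit within 1000 bp. Per1 and Per2, and also Cry2, the paralogue of Cry1, thus had no call in the lists that called Cry1.

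Counted over the set, 2 of 10 genes had a gene-end peak in each of the 4 lists. They were Cry1 and Tef in the normal lists, where 2.54% and 2.68% of all protein-coding genes had one, and Cry1 and Ciart in the starved lists, where 2.01% and 2.3% did. In both normal lists together the share of all genes was 2.19%, in both starved lists 1.78%, in all 4 lists 1.13% and in any list 4.05%. The mean count was the same in both conditions (difference 0, p = 1 by exact permutation of the lists, two-sided, with 6 labelings and 0.33 as the smallest possible p). With peaks inside genes added, the set had 2 genes in each normal list and 3 in each starved list, against 5.46%, 6.5%, 3.23% and 4.1% of all genes. Tef belonged to the 0.841% of genes with a gene-end peak in both normal and no starved list, and Ciart to the 0.557% with one in both starved and no normal list. Counted by a summit within 1000 bp of any RefSeq start, Cry1 and Tef were called in both normal lists, as were 2.28% of genes with a start, and Cry1, Tef and Ciart in both starved lists, as were 1.92%. With 10 genes, 1 gene moves the share by 10%.

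The 3 bound genes differed in the form of their E-box, which the choice of genes did not use. Cry1 and Ciart were among the 603 promoters with an extended E-box. Of these, 29.2% had a summit in the window in both normal lists together (95% exact binomial interval 25.6 to 33.0) and 29.2% in both starved lists together (25.6 to 33.0). Of the 1063 promoters with an E-box in no extended form, to which both starts of Tef and the first start of Per1 belong, 3.57% (2.54 to 4.87) and 3.1% (2.15 to 4.33) did. Of the 898 promoters with the variant alone, as at Cry2 and Nr1d1, 0.334% did in either condition. Over all promoters the shares were 1.45% and 1.1%. A summit in both lists of a condition was thus found in a minority of promoters of every class, the extended E-box included. Its absence at the first start of Per1 and at Cry2 and Nr1d1 was the usual outcome in any class. These shares count summits in the promoter window, while the genes were searched at both ends and inside. Whether motif class accounts for the lack of a call at these 3 genes was not tested. The normal calls at the first start of Tef were shared by few promoters of its class.

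Within the promoters with an extended E-box, 17.7% had a summit in all 4 lists, as Cry1 did. A summit in both starved and no normal list, as at Ciart, was found in 9.78% of them (7.53 to 12.4), and one in both normal and no starved list in 6.97% (5.07 to 9.30). In the class of Tef, 1.22% had a summit in both normal and no starved list. Neighbouring genes can share a promoter window and a motif, so these promoters are not independent of each other, and the motif classes were defined with the peaks at Cry1, Tef and Ciart known.

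**Figure D4:**
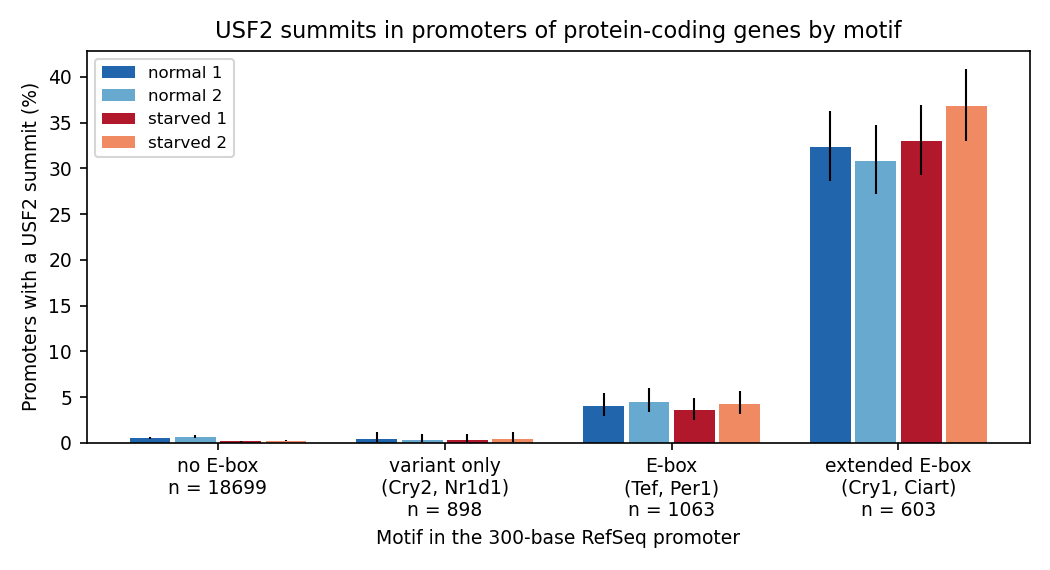
Share of 300-base promoters of protein-coding genes with a USF2 summit, in percent, by the motif they hold and by list, with 95% exact binomial intervals. Clock genes with a motif are named under the axis by class. Dbp, Hlf and the second start of Per1, which had no motif, are not named there. The share was highest in promoters with an extended E-box, the class of Cry1 and Ciart, in all 4 lists.

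**Figure D5:**
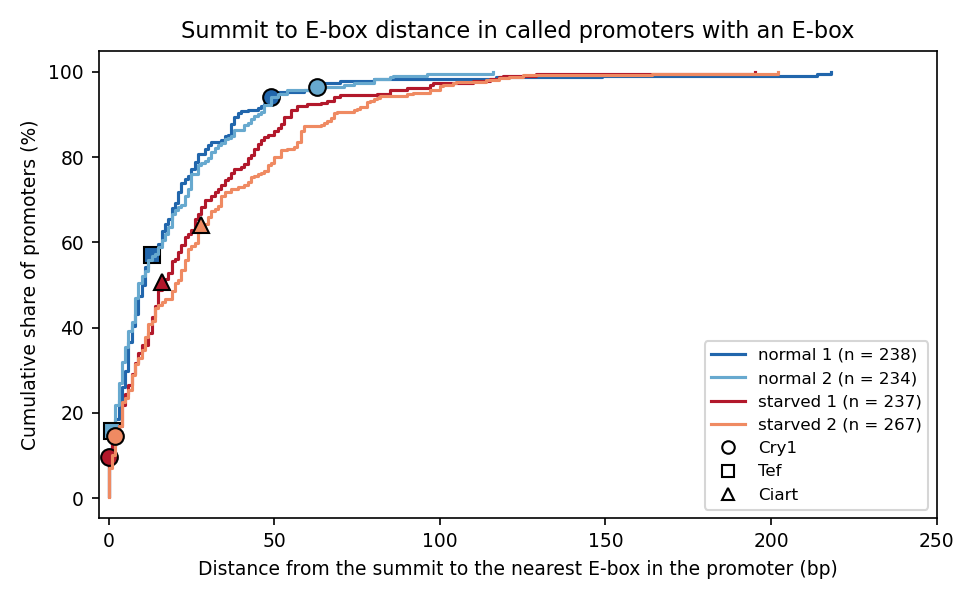
Cumulative share of called promoters with an E-box, in percent, by the distance of their summit from the nearest E-box in bp, for each list, with Cry1, Tef and Ciart marked on the curve of their list. Cry1 lies at 49 and 63 bp near the top of the normal curves and at 0 and 2 bp at the foot of the starved curves.

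No protein-coding gene shared a peak with Cry1, Tef or Ciart at its own end. The normal summits at Tef lay inside the long non-coding RNA gene Gm17597, 80 and 68 bp from its end, and the starved summits at Ciart inside C920021L13Rik, another long non-coding RNA gene, at 6791 and 6721 bp from its end. These peaks cannot be assigned to 1 of the overlapping genes.

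The genes with a gene-end peak in the same lists and the most similar ranks were named for comparison. For Cry1, among 246 such genes, they were Dus1l, Gcat and H1f0, with a mean absolute difference in rank percentile of 2.03, 2.32 and 2.32 over 4 lists; Gcat and H1f0 had the same ranks. For Tef in the normal lists, among 183 genes, they were Nup50 (0.501), Tdg (0.535) and Gucd1 (0.798). For Ciart in the starved lists, among 121 genes, they were Fbxo10 (0.891), Lmln (1.17) and Slc16a1 (2.14).

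Of 36 other clock genes, among them Clock, Arntl (the gene of BMAL1), Npas2, Per3, Nr1d2, Nfil3, Bhlhe41 and the casein kinase genes Csnk1d and Csnk1e, 32 had no peak in any list. The 11.1% with a peak at an end or inside in at least 1 list were near the 10.5% of all protein-coding genes, and the 2.78% with a gene-end peak stood beside 4.05%. Sirt1, which encodes an NAD-dependent deacetylase that acts on clock proteins, was the 1 with a gene-end peak. It ranked 36 of 825 in starved 1 and 23 of 1178 in starved 2, with fold enrichments of 14.4 and 15.9 and 24 and 25 reads over the summit. In normal 1 it had a fold enrichment of 5.29 and ranked 1056 of 1645, with 9 reads, and in normal 2 it was not called. Sirt1 was thus in the leading 4.36% and 1.95% of the starved lists and in the lower part of the 1 normal list that called it. As at Cry1, the lists differ in length and calling width, so a change between conditions cannot be judged from these values.

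Peaks inside the gene alone were found at Rora and Timeless. Rora, which encodes a nuclear receptor that activates the gene of BMAL1 and spans 734843 bp, had them in all 4 lists, but no normal peak coincided with a starved one. The peak shared by its normal lists had identical edges in both (68734727 to 68734878 on chromosome 9) and 4 reads in each. The starved peaks shared 1 edge and had fold enrichments of 6.57 and 6.49, with 8 and 7 reads. Timeless had a peak of 5 reads in normal 2 alone.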

How the data were processed

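USF2 was profiled by ChIP-seq in 4 libraries, each with its own deposited peak list. Per the submitters' processing notes, MACS2 2.2.7.1, Bowtie2 2.5.1 and deepTools 3.5.1 were used on GRCm38, without parameters; whether inputs served as control is not given in the sources used here. The deposited fold enrichment is a ratio of pileup to local background. The same caller gave the deposited score, which is the −log10 q times 10 without its decimals, and the deposited −log10 values of p and q.

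Peaks outside chromosomes 1 to 19, X and Y were left out, and the others were ranked by −log10 q and matched to RefSeq genes of GRCm38.p6. The read pileup was recovered as the whole number k for which fold enrichment (k + 1)/(background + 1) and the Poisson tail above k best matched the deposited values; this and the gene matching were tested on simulated data. Motifs were searched on both strands of 300-base RefSeq promoters. All 10 genes are named, with the other clock genes with a peak (1 is not reported here), protein-coding genes sharing a peak, and the 3 genes most alike in rank per gene bound in both lists of a condition. Counts of genes per list were compared by exact permutation over lists, and alternatives changed the distance, threshold, list length and replicates. The genes and lists were chosen with earlier results of these data known. Python 3.11.15, pandas 2.3.3, numpy 2.4.6 and scipy 1.17.1 were used.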

Additional observations from a re-analysis of the deposited data

How the results depend on the processing

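The gene-end counts of the clock set (2 in both normal lists, 2 in both starved lists, 1 in all 4 and 3 in any) were the same within 500 bp, within 5000 bp, with any base of the peak within 1000 bp, with −log10 q of at least 5 and with the 825 best peaks of each list. Without any single replicate the normal and starved counts stayed at 2 to 2, the difference between conditions at 0 to 0 and the count over the remaining lists at 1 to 1. With the summit within 1000 bp of any RefSeq start (chosen after seeing the data) Tef counted in the starved lists too, which gave 2 genes in all 4 lists and a difference, normal minus starved, of -1 (exact two-sided permutation p = 0.33, the smallest possible). Within 5000 bp, 1 other clock gene was called in both normal lists and 3 in any list, and the share of all genes in both normal lists was 3.35%. With the variant added, 6 clock genes had an E-box instead of 4. With the replicate number as a block the difference was 0 (exact test over sign flips of 2 pairs, p = 1, smallest possible 0.5). The numbers are not known to mark a shared culture, and deviations in rank of same-numbered lists had a correlation of 0.0770 over 247 genes called in all 4 lists. Peaks with 4 to 9 reads, as at Rora, Timeless and Sirt1 in normal 1, rest on few reads, which limits the precision of their values.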
